A study of Mus musculus with 26 samples.

Results

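The protein part of the cytosolic ribosome was followed by diet and by fat cell fraction. Its members were the gene entries of both deposited tables whose symbol starts with Rpl or Rps and a digit, or with Rplp and a digit, or is Rpsa, without symbols that contain -ps and without the Rps6k kinases. This gave 90 of 39017 entries. Of these, 45 encode proteins of the large subunit, 31 encode proteins of the small subunit and 12 are paralogs or like-named genes. Among these 12, GENCODE M21 lists Rps3a2, Rps3a3, Rps12l1 and Rps12l2 as processed pseudogenes, which are intronless copies, and Rps4y2 as a transcribed processed pseudogene. Another member is Rps19bp1, which encodes a protein that binds Rps19. The last carries the symbol Rpl24, but its identifier is that of Zbtb11, a zinc finger gene, in GENCODE M21. The ribosomal protein itself was counted in an entry written RPL24, which the symbol rule does not take and which is given beside the members.

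RNA came from epididymal fat of male C57BL/6J mice that carried no transgene and were 9 to 10 weeks old when the diets began. Lean mice ate the low fat diet (LFD, 10% fat) for 12 weeks, obese mice ate the high fat diet (HFD, 60% fat) for 12 weeks, and formerly obese, switched mice (SW) had 9 weeks of HFD and then 3 weeks of LFD. Collagenase digestion and centrifugation split the fat into floating adipocytes (3 libraries per diet) and pelleted stromal vascular cells (SVCs, 1 LFD, 2 HFD and 3 SW libraries), the latter treated to lyse red cells. The study's methods call its replicates biological, but do not say whether a library held 1 mouse or a pool, so p-values measure the spread between these libraries.

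A ribosome reads mRNA with its small subunit and joins amino acids with its large subunit, and each ribosomal protein is needed in about equal number. Most of these mRNAs begin with a run of pyrimidines, the terminal oligopyrimidine (TOP) motif, through which mTORC1 signalling controls their translation more than their amount. Ribosomal protein genes have also left many processed pseudogenes in the mouse genome, intronless copies that can share the whole coding sequence, and most of the mRNAs are short.

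Those copies bear on many of the values below, so sequences of 3 genes that share a name or a coding sequence are shown first. Rps27, a zinc finger protein of the small subunit, is followed by the gene Gm9846 and by the paralog Rps27l, each over its first 90 coding bases in GENCODE M21 (GRCm38), with capitals where a base differs from Rps27.
Rps27: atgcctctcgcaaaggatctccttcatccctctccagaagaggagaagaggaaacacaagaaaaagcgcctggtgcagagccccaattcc
Gm9846: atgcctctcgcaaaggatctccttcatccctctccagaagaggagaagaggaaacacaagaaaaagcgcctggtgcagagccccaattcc
Rps27l: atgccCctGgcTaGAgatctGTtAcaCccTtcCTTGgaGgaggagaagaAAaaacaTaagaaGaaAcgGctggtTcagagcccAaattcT
Gm9846 matched Rps27 at all 252 coding bases, while Rps27l differed from Rps27 at 60 of them, 24 of which fall in the stretch shown. A read from the coding sequence of Rps27 therefore could not be told from one of Gm9846 but could be told from one of Rps27l.

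The estimated counts followed this. The entry named Rps27 had 0 counts in 13 of 15 libraries and 1 and 2 counts in the others, whereas Gm9846 held 133978 counts over the libraries. A count of 0 allows up to 3 counts in a library. Summed with its copy, the Rps27 family stood at 328, 527 and 586 CPM (counts per library total, adjusted by TMM) in LFD adipocytes, at 381, 468 and 403 CPM in HFD adipocytes and at 1216, 666 and 626 CPM in SW adipocytes. By name alone, one of the ordinary small subunit proteins would have been missing from these cells.

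Rps27 was the extreme of a common pattern. At least 1 copy, a gene elsewhere whose transcript held 70% or more of the 31-base words of the coding sequence, was found for 59 members, 135 copies in all. Of these copies, 11 had 0 counts in every library and 36 had over 1000 counts, and 17 of the 36 held the whole coding sequence without a difference. For 13 members the copies held over 50% of the counts of the family. They were Rps27 (100%), Rps6 (98.2%), Rps12 (97.0%), Rpl12 (96.9%), Rps13 (96.8%), Rpl5 (96.8%), Rpl31 (96.7%), Rpl28 (93.2%), Rpl10a (92.5%), Rpl27 (91.4%), Rpl10 (90.6%), Rpl15 (90.5%) and Rpl27a (88.6%). For another 8 members the copies held 10 to 50%.

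Rpl10a, a large subunit protein, shows how small a difference goes with such a split. Its processed pseudogene Rpl10a-ps1 held 114104 counts against 9253 in the entry of Rpl10a itself. The first 60 coding bases of both are given, with capitals at the bases of the copy that differ.
Rpl10a: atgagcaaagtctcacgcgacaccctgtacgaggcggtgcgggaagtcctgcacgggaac
Rpl10a-ps1: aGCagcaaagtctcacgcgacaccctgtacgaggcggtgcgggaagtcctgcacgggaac
Both differences of the 648 coding bases lie in the start codon, so the copy, as written in the genome, lacks it. Rps6, the small subunit protein that S6 kinase phosphorylates, held 3185 counts, and its identical copy Rps6-ps4 held 172837. The 15 libraries together are shown in the plot of members against copies. Values of these 13 members describe the small part of the family's counts that was assigned to the named gene, and family values are given where such a member is described.

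**Figure D1:**
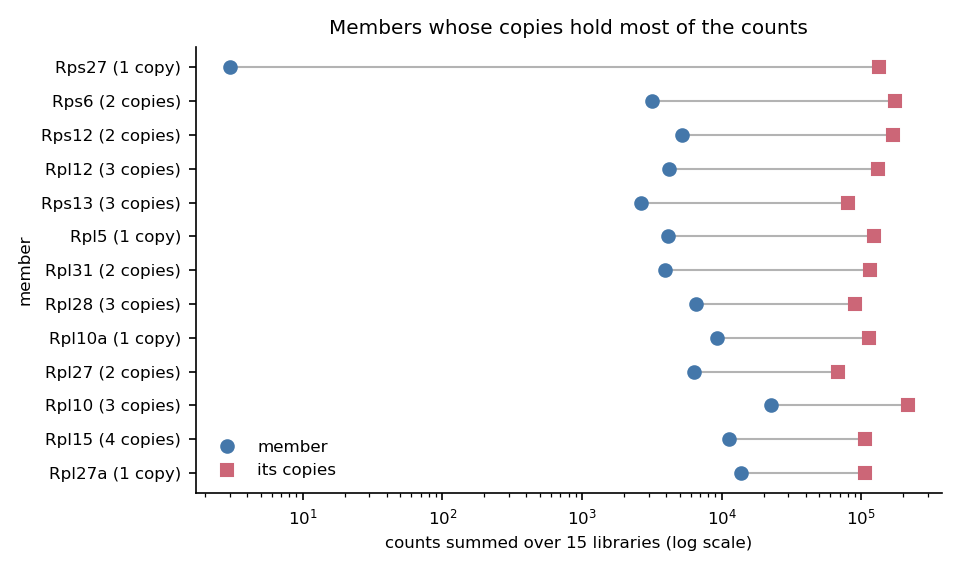
Estimated counts summed over 15 libraries (x axis, log scale) for the members whose copies hold most of the counts of their family (y axis), with circles for the member and squares for its copies. Rps27 has 3 counts against 133978 in its copy, and in each family the square lies to the right of the circle.

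The start of the mRNA was looked at because of the TOP motif. A run of C and T of at least 5 bases was sought on the gene's strand in RefSeq promoters of GRCm38.p6. It had to reach within 5 bases of an annotated start. Counting any annotated start of a gene, a run was present in 32 of 56 subunit proteins with such a window (57.1%), against 9916 of 27025 genes (36.7%). The other 20 subunit proteins had no window. Each window printed holds 15 bases before and 20 bases from the start. The 4 windows with a run (capitals) belong to Rplp2, Rps21 and Rpl38, which were called in both adipocyte comparisons with HFD, and to Rps6, and Rpl11 and Rpl5 are shown as windows without one.
Rplp2 (chr7:141447636-141447670, plus strand): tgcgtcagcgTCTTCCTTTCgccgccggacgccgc
Rps21 (chr2:180257364-180257398, plus strand): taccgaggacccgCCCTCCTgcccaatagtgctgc
Rpl38 (chr11:114668565-114668599, plus strand): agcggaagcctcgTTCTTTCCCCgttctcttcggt
Rps6 (chr4:86857348-86857382, minus strand): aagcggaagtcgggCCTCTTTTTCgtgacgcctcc
Rpl11 (chr4:136053374-136053408, minus strand): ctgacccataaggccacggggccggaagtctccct
Rpl5 (chr5:107900513-107900547, plus strand): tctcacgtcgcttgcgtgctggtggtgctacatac
A match describes letters at annotated starts, of which 1 per gene is printed, and is no TOP motif by itself. A window without a run may reflect the annotated start. Medians of subunit proteins with and without a run lay close together between SW and HFD adipocytes, at 0.69 (31 genes, 8 higher) and 0.68 (24 genes, 9 higher) on the log2 scale. Between HFD and LFD adipocytes they were 0.006 with a run (0 higher, 5 lower) and -0.20 without (1 higher, 0 lower), and for the difference between fractions in the response to the switch 0.40 and 0.14. None of these gaps between genes with and without a run was tested.

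Libraries differed in ways the diets do not give. Totals ran from 5781902 to 23725647 estimated counts. SW adipocyte library 407 had the highest share of Gm26924, a transcript that overlaps ribosomal RNA, at 4.73%, next to 4.35% in the only LFD SVC library. In SVC HFD library 411, genes of the mitochondrial genome took 33.5% of counts. SVC SW libraries 412 and 413 held transcripts of male germ cells, with Prm2, a sperm protamine, at 2935 and 5745 counts against 2 to 144 in the other libraries. The 11 adipocyte markers summed to 39100 to 59900 CPM in LFD adipocytes, 13800 to 23000 in HFD and 31300 to 34300 in SW, and to 695 to 1370 CPM in the SVC libraries, with none at 0 in every library of a group. The 10 macrophage markers summed to 661 to 1120 CPM in LFD adipocytes, 7860 to 9010 in HFD and 5950 to 9070 in SW, so the adipocyte fraction held more macrophage RNA after HFD. In such bulk libraries fewer cells of a type cannot be told apart from less RNA per cell, and the part of these libraries and cells in the results was not tested except where a value without the library is given.

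Ribosomal protein entries took 2.91, 4.02 and 4.06% of all counts in LFD adipocytes, 3.21, 3.53 and 3.29% in HFD adipocytes and 6.14, 4.09 and 4.16% in SW adipocytes. Every SW library lay above every HFD library, with the highest value in library 407, and the other SW libraries lay just above the highest LFD library. In SVCs the share was 2.90% in the LFD library, 3.78 and 4.32% in HFD and 5.46, 4.13 and 5.81% in SW, so that HFD and SW overlapped. With all copies added the means were 4.45% ± 0.80 (SD, n = 3) in LFD, 4.15% ± 0.20 in HFD and 5.93% ± 1.44 in SW adipocytes, and 4.94% ± 0.43 (n = 2) in HFD and 6.28% ± 1.201 (n = 3) in SW SVCs. These shares are not adjusted for composition. Without mitochondrial genes, library 411 had the highest share of the SVCs, at 6.50%.

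**Figure D2:**
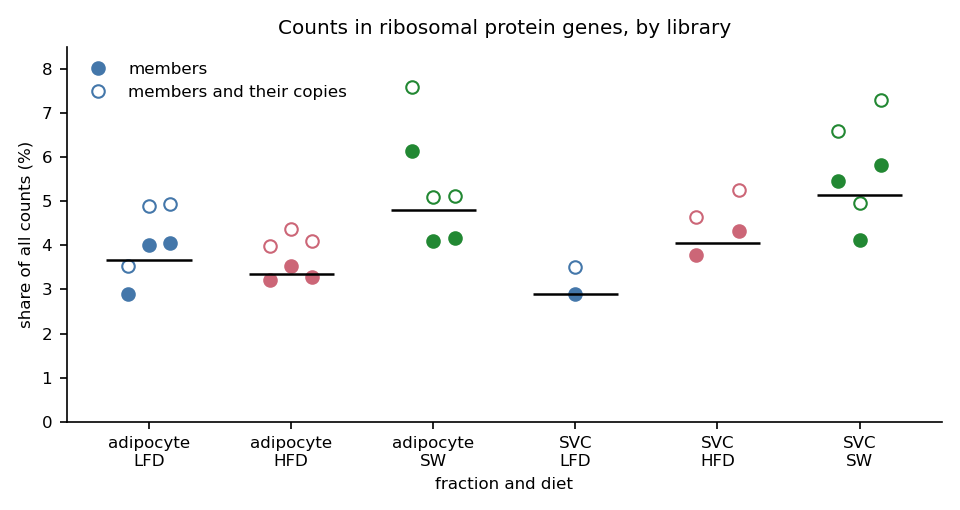
Share of all estimated counts (y axis, %) in ribosomal protein entries by fraction and diet (x axis), each point a library, filled for the members and open for members with their copies, with lines at the mean of the filled points. SW library 407 (6.14%) stands above all other adipocyte libraries, which lie between 2.91 and 4.16%.

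HFD against LFD in adipocytes asked how the ribosomal proteins stood in obesity. Few of them passed the test. Of 84 members tested, 1 was higher and 7 were lower by edgeR's quasi-likelihood test (adjusted p, Benjamini-Hochberg over all 14461 genes), whereas 26.5% of all genes were higher and 25% were lower. The median log2 fold change was -0.15 over the members and -0.03 over all genes, and 54 of the 84 members were below 0. Of the large subunit, 1 member was higher and 4 were lower of 45, and of the small subunit 1 was lower of 30. In the same comparison 9 of 11 adipocyte, 5 of 5 erythroid, 4 of 6 endothelial and 4 of 6 mesothelial markers were lower. Erythroid sums were 2130 to 3210 CPM in LFD and 612 to 761 CPM in HFD. Higher were 10 of 10 macrophage markers and 4 of 7 markers of fibroblasts and progenitors. No T cell or B cell marker was called. The part of these cell types in the members' values was not tested.

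Rplp2, which with Rplp1 and Rplp0 forms the acidic stalk that recruits translation factors to the large subunit, changed most of the members called. It stood at 668, 1122 and 1184 CPM in LFD, at 315, 393 and 370 CPM in HFD and at 1879, 777 and 859 CPM in SW adipocytes. All HFD libraries were below all LFD and SW libraries, while LFD and SW overlapped. HFD was lower than LFD by 2.76-fold (log2 -1.46 ± 0.345, SE, adjusted p = 0.00569). Rplp1, its partner, followed at 824, 1362 and 1296 CPM in LFD and 625, 793 and 774 CPM in HFD, which did not pass the test (log2 -0.67 ± 0.338, adjusted p = 0.122). Rplp0, the stalk base, differed little (log2 -0.15 ± 0.206, adjusted p = 0.556).

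Rps21 and Rpl38, small proteins of either subunit, were also lower in HFD. Rps21 had 352, 592 and 655 CPM in LFD and 257, 312 and 275 CPM in HFD adipocytes (log2 -0.92 ± 0.334, adjusted p = 0.0403). Rpl38 had 277, 404 and 412 CPM in LFD and 184, 238 and 213 CPM in HFD (log2 -0.78 ± 0.289, adjusted p = 0.0432). For both the groups did not overlap. Rpl27 (-0.69 ± 0.248) and Rpl27a (-0.68 ± 0.224) were lower by name, at 21.7 to 103 CPM, but with their copies the values were -0.42 (adjusted p = 0.187) and -0.37 (adjusted p = 0.275) and no longer passed. Rps19bp1 was lower by 0.73 ± 0.271. Rps4y2, which GENCODE M21 lists as Rps4l, a transcribed processed pseudogene, was lower by 1.15 ± 0.233 (adjusted p = 0.00253), from 33.9 to 45.3 CPM in LFD to 15.9 to 22.5 CPM in HFD.

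Rpl11 alone was higher in HFD. Together with Rpl5 and 5S rRNA, Rpl11 binds the p53 inhibitor Mdm2 when ribosome assembly fails. It had 311, 333 and 369 CPM in LFD, 420, 508 and 432 CPM in HFD and 537, 439 and 500 CPM in SW adipocytes (HFD against LFD log2 0.43 ± 0.147, adjusted p = 0.0336). The processed pseudogene Gm10288, which differs from Rpl11 at 1 of 534 coding bases, was nearly all of the copy counts, and copies held 30.1, 44.4 and 38.4% of the family in LFD but 14.6, 19.6 and 22.0% in HFD. Summed over the family, HFD differed from LFD by 0.03 (adjusted p = 0.922), and the call was lost.

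Values also went with transcript length. Among 75 subunit proteins the fold change rose with coding length (Spearman's rho 0.312), a measure chosen after seeing the data. With transcript length rho was 0.228. Both describe genes that share the same libraries. All genes tested showed the same sign with transcript length (rho 0.266, n = 14321). With a smooth trend of each library against transcript length taken out, 36 members were higher and 2 lower, with a median of 0.33, and of the 8 members called before, 3 kept their call, namely Rplp2 (-0.996), Rps4y2 (-0.70) and Rpl11 (0.92). Without SW library 407, which takes part in the estimate of the spread only, 3 were higher and 17 lower, and without any 1 of the HFD libraries or of LFD libraries 405 and 406 only 2 to 4 members were called.

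SW against HFD in adipocytes asked what the diet switch did, and here the members moved together in 1 direction. Of 84 members tested, 29 were higher and 0 were lower, and 60 were higher and 0 lower at an unadjusted p under 0.05. Of all genes, 15.6% were higher and 15.9% lower. The median member was higher by 0.68 on the log2 scale, against 0.007 over all genes, and 80 of 84 members were above 0. By role, 16 of 45 large subunit proteins, 9 of 30 small subunit proteins, 3 of 7 paralogs or like-named genes tested and Rps19bp1 were higher. DESeq2 called 49 higher and 0 lower, and limma-voom 25 and 0. Of the adipocyte markers 5 of 11 were higher and 0 lower as well, and of the erythroid markers 4 of 5 (1320 to 2130 CPM in SW). Also higher were 1 of 6 T cell, 2 of 5 B cell and 1 of 6 endothelial markers. Lower were 3 of 10 macrophage markers and 3 of 7 markers of fibroblasts and progenitors, with 0 of either higher. No mesothelial marker was called. The part of these cell types in the rise was not tested.

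Of the members called, Rplp2 again changed most, while the other stalk proteins did not lead. Rplp2 was higher in SW by 1.70 ± 0.347 (adjusted p = 0.00876), and passed the test under all 22 alternative settings in this comparison (1.09 to 1.92) and in HFD against LFD (-1.68 to -0.996). Both comparisons share the HFD libraries, which lie lowest. Rplp1 was higher by 1.13 ± 0.340 (adjusted p = 0.0313), with 2580, 1045 and 1182 CPM in SW. Rplp0 stood at 1389, 870 and 945 CPM in SW against 764, 865 and 805 CPM in HFD, with the lowest SW library only just above the highest HFD library (0.40 ± 0.206, adjusted p = 0.161).

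After Rplp2, the largest rises were those of Rps21 (1.31 ± 0.337), Rplp1, Rps28 (1.13 ± 0.356) and Rpl21 (1.13 ± 0.275). Rps21 stood at 1097, 444 and 550 CPM in SW adipocytes, all above its HFD range, and Rpl38 (1.12 ± 0.290) at 700, 319 and 360 CPM. Rpl21 had 246, 284 and 283 CPM in HFD and 853, 478 and 446 CPM in SW, and over its family, of which copies held 43.1 to 46.8% in HFD and 20.8 to 33.8% in SW, the rise was 0.76 (adjusted p = 0.0313). In each of these genes library 407 held the highest SW value. Rpl37a (1.05 ± 0.3), Rps15 (1.02 ± 0.293), Rpl36a (0.97 ± 0.290), Rpl41 (0.94 ± 0.301), whose coding sequence of 75 bases is the shortest of the subunit proteins, Rps20 (0.90 ± 0.273) and Rpsa (0.83 ± 0.263), the laminin receptor protein of the small subunit, also rose. RPL24, outside the symbol rule, rose by 0.94 ± 0.278 (adjusted p = 0.03), while the entry with the identifier of Zbtb11 gave -0.16 ± 0.187.

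Of the assembly proteins, Rpl5 rose by name, from 20.4, 22.5 and 20.6 CPM in HFD to 44.4, 32.4 and 27.1 CPM in SW (0.70 ± 0.189, adjusted p = 0.0216), but over its family the value was 0.24 (adjusted p = 0.311). Rpl11 (0.12 ± 0.147), Rpl23 (0.36 ± 0.185) and Rpl26 (0.63 ± 0.268) did not pass. Around the peptide exit tunnel, Rpl23a (0.63 ± 0.228, adjusted p = 0.0584), Rpl35 (0.56 ± 0.268) and Rpl39 (0.47 ± 0.264) did not pass either. Of the members often used as reference genes, Rpl13a rose by 0.90 ± 0.311 (adjusted p = 0.0497), at 628, 830 and 805 CPM in HFD and 2154, 1023 and 1054 CPM in SW, while Rpl32 (0.58 ± 0.273, adjusted p = 0.128) and Rps18 (0.61 ± 0.259, adjusted p = 0.0967) did not pass. Rps27a, a ubiquitin fusion, had 0.66 ± 0.242 (adjusted p = 0.0597), and Rps3, near the mRNA entry, had 0.36 ± 0.239.

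Families counted mainly through copies all had a higher mean in SW, and 6 of 13 passed. The Rps27 family was higher by 1.005 (adjusted p = 0.0267), the Rps13 family by 1.03 (adjusted p = 0.0265), the Rps12 family by 0.84, the Rpl27a family by 0.81, the Rpl27 family by 0.77 and the Rpl28 family by 0.67. The Rps6 family had 716, 814 and 791 CPM in HFD and 1445, 905 and 893 CPM in SW (0.49, adjusted p = 0.118).

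Going against the majority, 4 members were below 0, and none passed the test. They were Rps7 (-0.12 ± 0.155), Rpl7l1 (-0.10 ± 0.103), the Zbtb11 entry and Rps12 (-3.48 ± 2.14). Over the Rps7 family, with 417, 531 and 503.5 CPM in HFD and 728, 512.5 and 513 CPM in SW, the sign turned (0.28, adjusted p = 0.302). Rps12 shows how identical copies act on a single entry. It had 0, 1707 and 0 counts in HFD, 0, 45 and 46 in SW and 0, 0 and 40 in LFD adipocytes, while its family stood at 653, 853 and 822 CPM in HFD and 2029, 993 and 1125 CPM in SW, because the copy Rps12-ps3, identical over 396 coding bases, held 168541 counts.

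**Figure D3:**
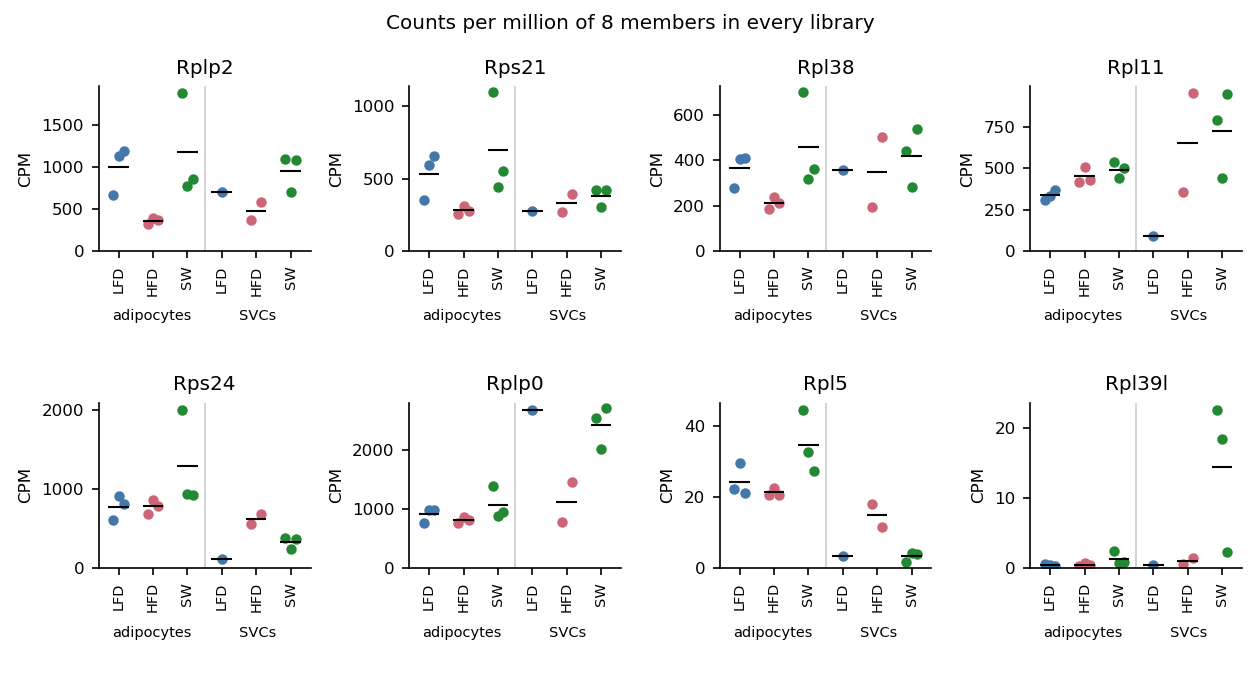
CPM (y axis, linear from 0) of Rplp2, Rps21, Rpl38, Rpl11, Rps24, Rplp0, Rpl5 and Rpl39l by fraction and diet (x axis), each point a library and each line a group mean. For Rplp2 the HFD adipocyte libraries (315 to 393 CPM) lie below all LFD and SW adipocyte libraries.

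This pattern was also seen in short genes as a class, in which the short members and their copies were not set apart. Among all genes with transcripts of up to 800 bases the median change from HFD to SW was 0.82 (691 genes, 358 higher and 17 lower), against -0.02 for longer ones. Within the subunit proteins, those with coding sequences of up to 400 bases had a median of 0.76 (24 genes, 11 higher) and those over 600 bases 0.60 (22 genes, 5 higher). Spearman's rho over 75 subunit proteins was -0.432 with coding length and -0.289 with transcript length. With transcript length over all 14321 genes it was -0.504. These are descriptions over the same libraries. With the length trend taken out, 5 members were higher and 5 lower, and their median was 0.006. Those higher were Rplp2 (1.09), Rps20 (1.06), Rps15a (1.04), Rpl21 (0.73) and Rpl5 (0.56). Rps20 and Rps15a are annotated with principal transcripts of 3706 and 5154 bases for coding sequences of 357 and 390, so their correction rests on an unlikely length. Rplp2, Rpl21 and Rpl5 are annotated with 964, 1377 and 2045 bases for coding sequences of 345, 480 and 891. Their correction too rests on a transcript annotated as much longer than its coding sequence. Those lower were Rps7 (-0.68), Rpl11 (-0.48), Rpl7a (-0.45), Rpl15 (-0.34) and Rps27l (-0.27). The length trend and the diet switch cannot be told apart by these libraries, since both separate SW from HFD.

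Single libraries also set the count. Without SW library 407, 9 members were higher, with a median of 0.33, and without HFD libraries 401 or 403 only 1 was, or 10 without HFD library 402. Without LFD library 405 it was 16. In all of these 0 were lower. With only the HFD and SW libraries fitted, 19 were higher.

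**Figure D4:**
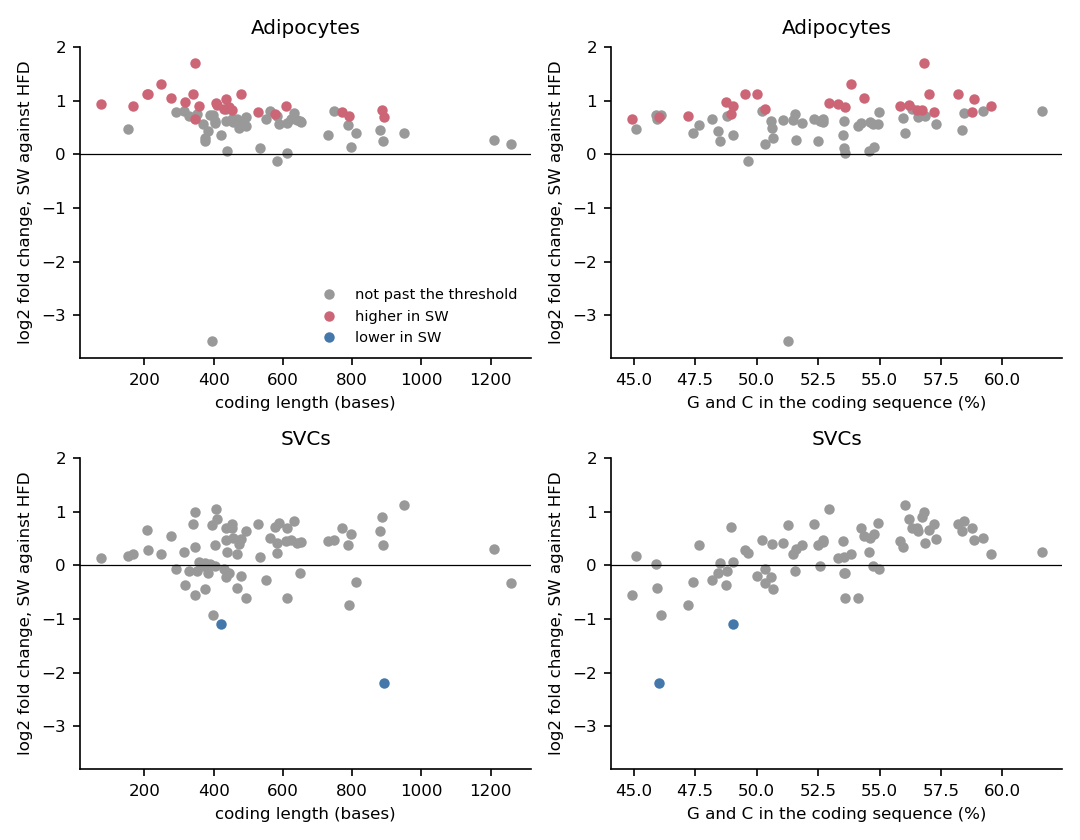
Log2 fold change of SW against HFD (y axis) of the subunit proteins against coding length in bases and against the percentage of G and C in the coding sequence (x axes), in adipocytes (top) and SVCs (bottom), coloured by the edgeR call. In adipocytes short members lie higher (rho -0.432), and in SVCs members rich in G and C lie higher (rho 0.628).

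SW against LFD in adipocytes asked whether formerly obese mice differed from lean ones. All but 1 of 84 members had a higher mean in SW, with a median of 0.49 against 0.0006 over all genes, but only 3 were higher by the test and 0 were lower (27 and 0 at an unadjusted p under 0.05, 15 and 0 by DESeq2, 2 and 0 by limma-voom). Of all genes, 10.9% were higher and 6.18% lower. The 3 were Rpl11 (0.54 ± 0.147, adjusted p = 0.03), Rpl10a (0.90 ± 0.258, adjusted p = 0.038) and Rpl31 (0.94 ± 0.286, adjusted p = 0.0491). Over their families the differences of Rpl10a (0.79, adjusted p = 0.0263) and Rpl31 (0.81, adjusted p = 0.0266) passed as well, but that of Rpl11 did not (0.59, adjusted p = 0.106). Without SW library 407, 0 members were higher or lower and the median was 0.17, and 0 were likewise called without LFD library 404 or LFD library 405. It was 1 without LFD library 406, HFD library 402 or HFD library 403, and 8 without SW library 409.

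Rplp2 had LFD and SW ranges that overlapped (0.24 ± 0.338, adjusted p = 0.674), as had Rps4y2 (-0.26 ± 0.230). Rpl7l1, a paralog of Rpl7 that acts in ribosome assembly, was the least variable of the paralogs, at 69.1 to 71.5 CPM in LFD, 75.1 to 81.4 in HFD and 64.6 to 77.9 in SW adipocytes, with no comparison of diets past the test. The 24 members with coding sequences of up to 400 bases had a median of 0.54 and the 22 over 600 bases 0.50, with a rho of -0.0689. With the length trend taken out, 20 members were higher in SW than in LFD and 0 lower, with a median of 0.34.

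In SVCs few members were called. Between SW and HFD, 0 of 86 members were higher and 2 were lower (8 and 6 at an unadjusted p under 0.05, 10 and 5 by DESeq2, 0 and 1 by limma-voom), where 5.71% of all genes were higher and 11.7% lower of 16319. The median of the members was 0.29 and that of all genes 0.03. The LFD library had no replicate and entered no test.

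The 2 members called lower were Rpl5 and Rpl23. Rpl5 stood at 18.0 and 11.4 CPM in HFD and at 1.55, 4.13 and 3.83 CPM in SW (-2.20 ± 0.495, adjusted p = 0.0408). Rpl23, which also binds Mdm2, stood at 570 and 373 CPM in HFD and at 239, 206 and 214 CPM in SW (-1.10 ± 0.259, adjusted p = 0.0425). In both the groups did not overlap. Over the Rpl5 family, in which the copy Gm15500 is identical over 891 coding bases and held 98.4 to 99.6% in SW, the difference was -0.61 (adjusted p = 0.16), whereas no copy altered Rpl23 (-1.10 with copies added). Rps24 had 552 and 683 CPM in HFD and 369, 234 and 366 CPM in SW (-0.94 ± 0.287, adjusted p = 0.0641), and Rps3a1 712 and 544 against 403, 339 and 387 CPM (-0.74 ± 0.241, adjusted p = 0.0709). Neither passed, although their groups did not overlap.

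In SVCs Rplp0, Rplp1 and Rplp2 of the stalk leaned higher in SW than in HFD, without passing. Of the 86 members tested, 57 leaned that way. Rplp0 had 774 and 1451 CPM in HFD and 2532, 2016 and 2706 CPM in SW (1.12 ± 0.383, adjusted p = 0.0792), and Rplp2 had 374 and 586 CPM in HFD and 1092, 695 and 1076 CPM in SW (0.99 ± 0.348, adjusted p = 0.084). Rplp1, summed with a copy that held 0.04% of the family, had 835 and 1249 CPM in HFD and 1987, 1467 and 1874 CPM in SW. In the LFD library Rplp0 was at 2683 CPM, close to the SW values. Rpsa had 0.91 ± 0.387 (adjusted p = 0.125).

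The values followed base composition. The coding sequences of the subunit proteins range from 44.9 to 61.6% G and C. The first 60 coding bases of Rpl5 and of Rps2, with G and C in capitals, show how far members can differ, with 21 such bases in Rpl5 and 44 in Rps2.
Rpl5: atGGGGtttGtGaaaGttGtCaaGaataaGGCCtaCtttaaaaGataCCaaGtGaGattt
Rps2: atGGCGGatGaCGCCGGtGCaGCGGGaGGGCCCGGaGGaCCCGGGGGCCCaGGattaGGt
Between SW and HFD in SVCs the 20 subunit proteins with up to 50% G and C had a median of -0.17, the 34 from 50 to 55% had 0.27 and the 21 above 55% had 0.66. Spearman's rho with coding G and C was 0.628 over the 75 subunit proteins and, with transcript G and C, 0.575 over all 16149 genes with a length. With the trend of each library against G and C taken out, an alternative chosen after seeing the data, 0 members were called (6 higher and 4 lower at an unadjusted p under 0.05), and Rpl5 stood at -0.87 (adjusted p = 0.208).

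**Figure D5:**
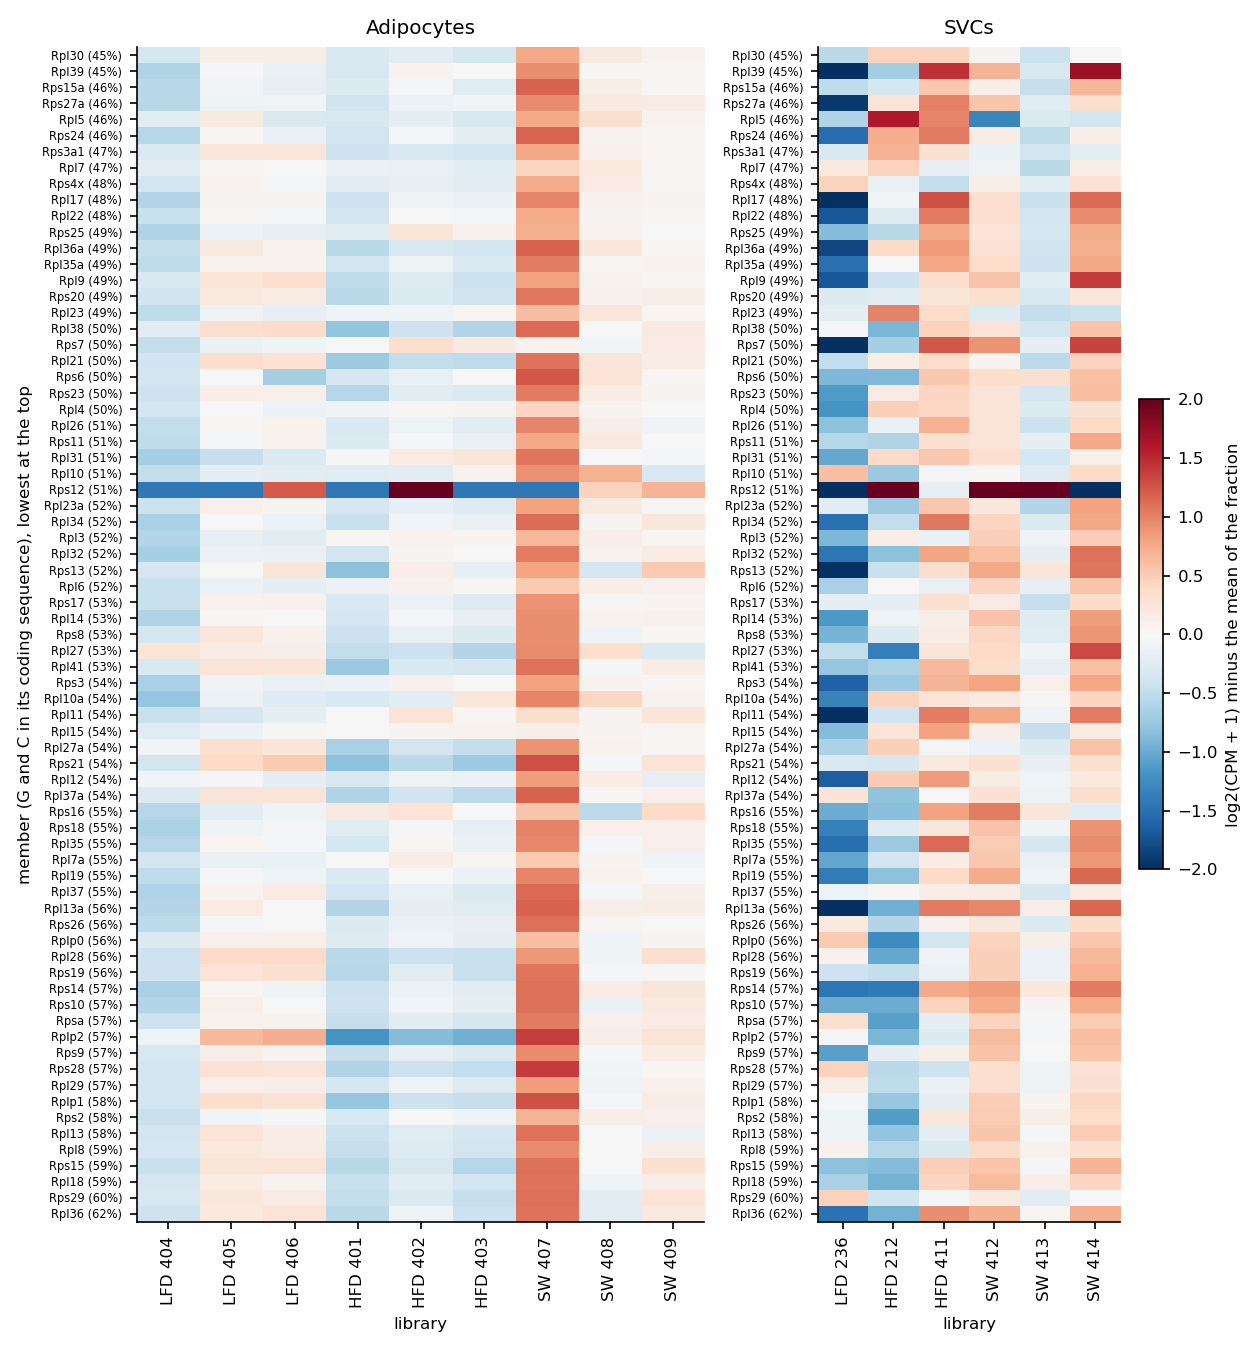
Log2(CPM + 1) of the subunit proteins shown minus its mean over the libraries of the fraction (colour), with members ordered from the lowest G and C content at the top and libraries as columns. SW adipocyte library 407 is above the mean for almost all members, and SVC HFD library 212 goes from mixed at the top to mostly below the mean among members rich in G and C.

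The number of calls moved with single libraries. Without HFD library 411, which had many mitochondrial counts, 18 members were higher and 4 lower in SW and the median was 0.83. Without HFD library 212, SW library 412 or SW library 413, 0 members were called, and without SW library 414 1 was higher. The median without library 212 was 0.03.

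Adipocytes were compared with SVCs at the same diet to ask where the members stood higher. In SW mice, 12 of 86 members were higher in adipocytes and 20 lower, where 32.8% of all 17441 genes were higher and 35.6% lower. The median was -0.22 against -0.09 over all genes. Higher were 6 of 45 large subunit and 3 of 30 small subunit proteins, and lower were 10 and 8. Values here are CPM scaled over all 15 libraries.

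Highest over SVCs was Rpl5, with 39.5, 29.0 and 24.4 CPM in SW adipocytes and 1.82, 5.06 and 4.57 CPM in SW SVCs (2.98 ± 0.317, adjusted p = 3.36e-06), and 0.73 over its family (adjusted p = 0.00779). Rps24 had 1784, 833 and 825 against 434, 286 and 437 CPM (1.57 ± 0.311, adjusted p = 0.000563), Rpl23 851, 649 and 573 against 280, 251 and 255 CPM (1.40 ± 0.198, adjusted p = 3.63e-05) and Rps3a1 1572, 991 and 955 against 473, 415 and 462 CPM (1.38 ± 0.223). In none of these did the fractions overlap. Rps3a2, a processed pseudogene in GENCODE M21 with 22 to 48 counts in the SW SVC libraries, had 1.97 ± 0.543, second to Rpl5.

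Lower in adipocytes were the stalk base Rplp0, with 1238, 777 and 849 CPM against 2974, 2466 and 3227 CPM in SVCs (-1.60 ± 0.278, adjusted p = 0.000201), Rps7 (-1.67 ± 0.435), Rps16 (-1.59 ± 0.422) and Rps2 (-1.25 ± 0.318), among others. Rplp2, from the same stalk, had -0.12 ± 0.349. The difference between Rplp0 and Rplp2 was not tested. The values followed base composition here as well. Of the subunit proteins with up to 50% G and C, 7 of 20 were higher and 2 lower in adipocytes, while of those above 55% 0 of 21 were higher and 10 lower. With the G and C trend taken out, 14 members were higher and 9 lower, of which 13 were called in the same direction as before, and Rpl8, Rpl13, Rps10, Rpl7 and Rps23 changed sign. Rpl5, Rpl23, Rps3a1, Rpl30, Rpl36al, Rplp0, Rps16 and Rps7 passed with unchanged sign under all 28 alternatives.

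In HFD mice, 0 of 86 members were higher in adipocytes and 9 were lower (0 and 30 at an unadjusted p under 0.05, 0 and 20 by DESeq2, 0 and 3 by limma-voom), where 12.9% of all genes were higher and 16.2% lower. The median was -0.53 against -0.08. Rpl36 (-1.36 ± 0.483), Rps16 (-1.34 ± 0.455) and Rps15 (-1.23 ± 0.411) were among those lower, as were Rpl18, Rpl12, Rps2 and Rpl10a. Over their families Rpl12 (-1.02, adjusted p = 0.0948) and Rpl10a (-0.79, adjusted p = 0.0909) did not pass. With the G and C trend taken out 1 member was higher and 2 were lower, both of the latter called before, and rho with coding G and C was -0.474. For the entry of Rps16, adipocytes had 303, 329 and 274 CPM and SVCs 344 and 1190 CPM, so the fractions did not overlap. Its main copy Rps16-ps2 is identical over 438 coding bases. Copies held 21.2, 31.4 and 37.5% of the family in these adipocytes and 18.7 and 14.6% in these SVCs. Scaled within each fraction, the family stood at 431, 528 and 484 CPM in adipocytes and at 398 and 1177 CPM in SVCs. The difference of Rps16 passed in 14 of 28 alternatives (-1.98 to -0.18). Without SVC HFD library 411, 0 members were called, with a median of -0.04 (4 higher and 2 lower at an unadjusted p under 0.05), and without SVC HFD library 212, 37 were lower. Without adipocyte HFD libraries 401, 402 or 403 it was 2, 2 and 3, without SVC SW library 412 it was 4, and without SW adipocyte library 407 it was 15.

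Whether the diet switch acted differently on the fractions was tested as the change from HFD to SW in adipocytes minus that in SVCs. For 8 members it was higher and for 0 lower (12 and 1 at an unadjusted p under 0.05, 9 and 0 by DESeq2, 7 and 0 by limma-voom), where 15.7% of all genes were higher and 11.4% lower. The median was 0.36 against 0.04. Rpl5 (2.75 ± 0.438, adjusted p = 0.00165), Rps24 (1.57 ± 0.454, adjusted p = 0.0221), Rpl23 (1.34 ± 0.290, adjusted p = 0.00561), Rps3a1 (1.33 ± 0.327, adjusted p = 0.01), Rpl36al (1.196 ± 0.380, adjusted p = 0.033), Rpl30 (1.12 ± 0.314, adjusted p = 0.0188) and Rpl12 (1.045 ± 0.346, adjusted p = 0.0391) were the members, with the Zbtb11 entry (1.12 ± 0.365).

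Rps24 had 609, 784 and 711 CPM in HFD and 1784, 833 and 825 CPM in SW adipocytes, against 587 and 809 and then 434, 286 and 437 CPM in SVCs, and passed in neither fraction alone. Rpl30, with 44.9% G and C the lowest of the subunit proteins, had 297, 319 and 293 CPM in HFD and 621, 415 and 390 CPM in SW adipocytes, against 356 and 391 and then 296, 220 and 292 CPM in SVCs, and it alone of the 8 passed under all 28 alternatives (0.95 to 1.39). Of the 20 subunit proteins with up to 50% G and C, 5 were called, and above 55% 0 of 21 were. With the G and C trend taken out 5 members were called, and Rpl5, Rpl30 and Rpl12 were among them. Over their families Rpl5 had 0.74 (adjusted p = 0.0971) and Rpl12 0.03 (adjusted p = 0.996), and neither passed. Without adipocyte HFD libraries 401 or 403, 4 and 5 members were called. Without SVC HFD library 411, 9 members were higher and 4 lower and the median was -0.14.

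Paralogs were compared with their parents per kilobase of transcript, as mean CPM per kb. Rpl22l1, which can stand in for Rpl22 in the large subunit, was at 249, 213 and 352 in LFD, HFD and SW adipocytes, above Rpl22 with 119, 120 and 163. In SVCs Rpl22l1 was at 230 in HFD and 165 in SW, and Rpl22 at 151 and 137. This order rests on annotated transcripts of 552 bases for Rpl22l1 and 2048 for Rpl22, although their coding sequences have 366 and 384. It does not show that the paralog has more counts than its parent. Rpl36al, from a gene that differs from Rpl36a at 39 of 318 coding bases, was at 365, 261 and 473 in adipocytes, below Rpl36a with 619, 484 and 950. Rps27l stood at 255, 223 and 335. Rpl7l1 was far below Rpl7, at 26.9 against 655 in LFD. From HFD to SW in adipocytes Rpl22l1 rose (0.72 ± 0.187, adjusted p = 0.0186), Rpl36al rose (0.86 ± 0.273, adjusted p = 0.0385) and Rps4y2 rose (0.90 ± 0.232, adjusted p = 0.0186), while Rps27l did not pass (0.59 ± 0.224, adjusted p = 0.0684). With the length trend taken out Rpl22l1 and Rpl36al were at -0.07 and -0.03.

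Rpl10l and Rpl39l, paralogs known from male germ cells, followed the germ cell transcripts. Rpl39l had 219, 447 and 20 counts and Rpl10l 50, 156 and 2 counts in SVC SW libraries 412, 413 and 414, against at most 22 and 11 counts in any other library. Prm1, chosen after its values were seen, had 1501, 4726 and 53 counts there and at most 100 elsewhere. In SW mice both paralogs were lower in adipocytes than in SVCs (Rpl39l -4.00 ± 0.756, adjusted p = 0.000392, and Rpl10l -3.82 ± 1.07, adjusted p = 0.00797). Between SW and HFD SVCs their values were 4.03 ± 1.12 (adjusted p = 0.0532) and 4.07 ± 1.5 (adjusted p = 0.0937). Rpl3l, Rps3a3, Rps12l2 and Rps27 were under the minimum count in every fit, and Rpl10l and Rpl39l in the adipocyte fit. Rps12l1 had 0 to 17 counts in the LFD and HFD adipocyte libraries and 192, 60 and 0 in SW.

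Other parts of the translation machinery were counted by lists of named genes, to be read against the shares of all genes called, which were 26.5% higher and 25% lower in HFD against LFD adipocytes, 15.6% and 15.9% in SW against HFD adipocytes and 5.71% and 11.7% in SW against HFD SVCs. Of ribosomal proteins under other names, Fau, a ubiquitin-like fusion with Rps30, rose from HFD to SW in adipocytes (0.86 ± 0.286, adjusted p = 0.0442), 1 of 3 measured. Of 25 translation factors and other genes with TOP mRNAs, 9 were higher and 1 lower in HFD than in LFD adipocytes, and 3 higher and 2 lower in SW than in HFD. Gas5, a host of small nucleolar RNAs with a TOP start, was the one lower (-1.02 ± 0.152) and rose with the switch (0.97 ± 0.152). Eef1a1 (0.56 ± 0.167), Eef2 (0.49 ± 0.156) and Pabpc1 (0.60 ± 0.133), of the same mRNA class, were higher in HFD.

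Of 37 ribosome biogenesis factors measured, 13 were higher and 5 lower in HFD than in LFD adipocytes, and 4 higher and 8 lower in SW than in HFD. Among them Nvl (0.81 ± 0.159, then -0.65 ± 0.154), Mdn1 (0.80 ± 0.203, then -0.98 ± 0.201) and Heatr1 (0.76 ± 0.158, then -0.71 ± 0.154) passed in both comparisons, as did Nop10 (-0.73 ± 0.190, then 0.78 ± 0.190). These comparisons share the HFD libraries. In SVCs 0 were higher and 8 lower in SW than in HFD, led by Ncl (-3.02 ± 0.577, adjusted p = 0.0372). Of 15 genes of RNA polymerase I and its factors, 3 were higher and 2 lower in HFD adipocytes, and 1 and 1 in SW against HFD.

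Of 15 genes of mTORC1, its S6 kinases and Larp1, 7 were higher and 3 lower in HFD than in LFD adipocytes, and 2 higher and 4 lower in SW than in HFD. Mtor (0.51 ± 0.136, then -0.63 ± 0.135) and its partner Rptor (0.79 ± 0.121, then -0.64 ± 0.119) were higher in HFD and lower after the switch. Eif4ebp1, which blocks cap binding by Eif4e when not phosphorylated, was lower and then higher (-1.60 ± 0.230, then 1.18 ± 0.227), and its paralog Eif4ebp2 was higher and then lower (1.43 ± 0.374, then -1.33 ± 0.362). All of these are mRNA levels and say nothing of translation or of protein. In adipocytes the fold change of all genes went with transcript length, with rho 0.266 in HFD against LFD and -0.504 in SW against HFD. The part of length in the values of these gene lists was not tested.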

How the data were processed

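RNA sequencing of adipocytes and SVCs from mouse epididymal fat gave 15 libraries with a diet group, in 2 tables of genes. The authors mapped reads with Bowtie2 and estimated counts with RSEM, and the deposited values are these estimated counts, whole numbers that are not normalized. The submitters' processing notes name the build mm9 and no versions. Columns carry a library number that is in no label, and 3 further columns, whose names fit no group in the labels, were left out. The titles of the 26 records give 3 replicates for each fraction and diet and mark each record as paired-end or single. All SW adipocyte records are paired-end. Some LFD and HFD adipocyte replicates also have single records, and some LFD and HFD SVC replicates have only single ones. No column can be joined to a record, so the part of read type in the results was not tested. No replicate pair differed by as little as counting noise (chi-square per degree of freedom 12.8 to 376.0). Depth was 5781902 to 23725647 counts, intervals and floors cover counting error only, and reads carry no molecular identifiers.

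The robust quasi-likelihood test of edgeR 4.0.16 (R 4.3.3) was run after TMM scaling on genes kept by filterByExpr (minimum 10 counts), with Benjamini-Hochberg adjustment over all genes tested and a threshold of 0.05, for the 9 adipocyte libraries, the 6 SVC libraries and all 15. SE is the log2 fold change divided by the root of F. DESeq2 1.42.0, limma-voom (limma 3.58.1), other scalings and filters, each library left out, added copies, and smooth trends against transcript length or G and C content were alternatives. Coding sequences, lengths and copies came from GENCODE M21 (all 90 identifiers found), and start windows from RefSeq. As these are GRCm38 and the counts mm9, no coordinates were joined to counts. Scripts were tested on simulated data.

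The members and the gene lists were chosen with earlier results of these data known. Named genes were members of fixed roles, all paralogs, in each comparison the 5 largest rises and falls past the threshold, and up to 5 members tested that went against the majority. Rps3a2 and other genes that share reads with a near copy are uncertain. Values of some members are not reported here by name.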

Additional observations from a re-analysis of the deposited data

Results flagged for a closer look

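The response to the diet switch was not the same in adipocytes and SVCs for 8 members, by a test of the difference itself (edgeR's quasi-likelihood test, adjusted p under 0.05), which is why they are listed. They were 8 of 86 members tested, where 15.7% of all genes were higher and 11.4% lower. The difference, adipocytes minus SVCs on the log2 scale, was 2.75 for Rpl5, 1.57 for Rps24, 1.34 for Rpl23, 1.33 for Rps3a1, 1.196 for Rpl36al, 1.12 for Rpl30, 1.12 for the entry Rpl24 with the identifier of Zbtb11 and 1.045 for Rpl12. With the G and C trend taken out, those of Rpl5 (1.78, adjusted p = 0.0144), Rpl30 (1.39, adjusted p = 0.0166) and Rpl12 (1.30, adjusted p = 0.026) passed, whereas those of Rpl36al (1.27, adjusted p = 0.0503), Rps3a1 (1.05, adjusted p = 0.0612), Rps24 (1.00, adjusted p = 0.214), Rpl23 (0.80, adjusted p = 0.0937) and the Zbtb11 entry (0.16, adjusted p = 0.8) did not. Rpl12 and Rpl5 are among the members whose copies held most of the counts, and over their families the difference was 0.03 (adjusted p = 0.996) and 0.74 (adjusted p = 0.0971). No group had the 4 libraries needed to look for single libraries far from their group.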

How the results depend on the processing

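No paired analysis was possible because the columns carry none of the replicate numbers of the labels. Of 91 member results past the threshold, recomputed in 2286 alternatives, 1828 kept direction and call, 449 kept direction and lost the call and 9 changed sign. Corrections for G and C content, coding in place of transcript length, and copies found by shared sequence were chosen after seeing the data. The causes of the changes below were not tested, except that fits with fewer libraries or genes have less to estimate the spread from.

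Members called in HFD against LFD adipocytes numbered 8, and 5 with copies added, 4 with no filter, 17 with only the groups compared, 38 with the length correction (median 0.33) and 2 to 20 with a library left out. In SW against HFD adipocytes they numbered 29, and 49 with DESeq2, 19 with only the groups compared, 10 with the length correction and 1 to 39 with a library left out. With the length correction Rpl22l1 (-0.069), Rpl30 (-0.034), Rpl36al (-0.028) and Rps29 (-0.12) changed sign. In SW against LFD adipocytes they numbered 3, and 15 with DESeq2, 1 with no filter, 20 with the length correction and 0 to 8 with a library left out.

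In SW against HFD SVCs they numbered 2, and 5 with 10 counts required in every library, 15 with DESeq2, 0 with the G and C correction, 1 with copies added, 1 with limma-voom, 7 with the length correction (median -0.013) and 0 to 22 with a library left out. For adipocytes against SVCs in SW they numbered 32, and 23 with the G and C correction (median 0.052), 42 with the length correction and 23 to 40 with a library left out (median -0.43 to 0.046). With the G and C correction Rpl13 (0.022), Rpl7 (-0.23), Rpl8 (0.38), Rps10 (0.13) and Rps23 (-0.11) changed sign. In HFD they numbered 9, and 17 with 10 counts in every library, 20 with DESeq2, 3 with the G and C correction, 3 with limma-voom, 3 with only the groups compared, 18 with upper-quartile factors and 0 to 37 with a library left out. For the difference between fractions they numbered 8, and 5 with the G and C correction, 12 with the length correction and 4 to 13 with a library left out (median -0.14 to 0.76).

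The share of counts in the members was 3.72% in HFD adipocytes, 3.04% in LFD SVCs and 5.27% in HFD SVCs without mitochondrial genes in the total, and 3.88, 3.38 and 4.63% with named pseudogene copies added. Spearman's rho of the fold change with coding length, in place of transcript length, was 0.312 in HFD against LFD, -0.432 in SW against HFD adipocytes, 0.15 in SVCs, -0.161 between fractions in SW and -0.421 for the difference between fractions. With transcript length the values were, in the same order, 0.228, -0.289, -0.149, 0.0953 and -0.0529. The sign thus differed between the length measures in SVCs and between fractions in SW. The SVC results rest on 2 HFD libraries, and members counted mainly through copies cannot be read as single genes.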
